A study of Pardosa pseudoannulata with 6 samples.

Results

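Of 75542 assembled transcript clusters of the wolf spider Pardosa pseudoannulata, 4 named after transforming growth factor-beta-induced protein ig-h3 and periostin are described here: Cluster-8110.37712, Cluster-8110.36223 and Cluster-8110.42712 (ig-h3) and Cluster-8110.36517 (periostin-like). They were listed by their names with the difference between the groups already known, so their values in that contrast are a description and are not tested. The 6 RNA sequencing libraries came from cadmium-treated animals, each microinjected with a double-stranded RNA (dsRNA, the trigger of RNA interference). This was dsFactin, directed at F-actin, for 3 libraries and the control dsNC for the other 3. The material is labelled as an individual, which the labels do not define further; the sources used here state no age, sex or cadmium dose. Nothing in the labels separates the replicates into animals, so each p-value reflects only variation among these libraries, possibly technical.

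Ig-h3 (also called TGFBI or BIGH3) and periostin are secreted proteins of the extracellular matrix in vertebrates. Both are built from repeated fasciclin (FAS1) domains, a fold first described in fasciclin-1, a cell surface protein of insect nerve cells. In vertebrates they bind collagens and other matrix proteins on one side and integrin receptors of cells on the other, and human ig-h3 was named for its induction by transforming growth factor beta. What the spider proteins do is not known from the data used here.

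The 4 clusters differed in how much of a protein they could hold. The authors' deposited table gave lengths of 3048, 2871 and 2598 bases for Cluster-8110.37712, Cluster-8110.36223 and Cluster-8110.36517, room for at most 1016, 957 and 866 codons. Cluster-8110.42712 had 409 bases, room for at most 136 codons and shorter than the median cluster of 618 bases. The first 3 were therefore long enough for most of a multi-domain matrix protein, and Cluster-8110.42712 could be a piece only.

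Their names rested on protein hits. In the authors' deposited table the best spider hit of Cluster-8110.36517 was a periostin-like protein of Stegodyphus dumicola (alignment score 2813), although its best Swiss-Prot hit was human ig-h3 (score 303) and its KEGG entry also reads transforming growth factor-beta-induced protein. Cluster-8110.36223 and Cluster-8110.42712 shared 1 best spider hit in the authors' deposited table, the ig-h3 of Trichonephila clavata, with scores of 2307 and 341. They were the only 2 clusters of the table with that hit, and whether they are pieces of 1 transcript was not tested, since no sequence was used here. The best spider hit of Cluster-8110.37712 in the authors' deposited table was an uncharacterized protein of Uloborus diversus (score 1565), and its name came from mouse ig-h3 in Swiss-Prot (score 222, E value 4.21e-17).

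The Pfam columns did not carry the fasciclin domain. In the authors' deposited table Cluster-8110.37712 was listed with a helix-hairpin-helix motif, a DNA-binding fold, and Cluster-8110.36223 with the TspO/MBR family, a membrane protein of mitochondria and bacteria. Cluster-8110.42712 and Cluster-8110.36517 had no Pfam entry. The fasciclin domain was listed for 0 of the 75542 clusters, and the actin domain for 0 as well although 23 clusters had a best hit named actin, so the columns do not bear on whether these proteins hold the domain. The KOG class of fasciclin and related adhesion glycoproteins was given to 6 clusters of the table, of which Cluster-8110.36223 is the only 1 among the 4 described here.

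Values are FPKM, read fragments scaled by transcript length and library size, as deposited by the authors. The steps between low values gave a depth of 16.1 to 17.9 M fragments (M, 1e6) in dsFactin and 15.8 to 17.6 M in dsNC, and a gene length reduced by a constant of 281 to 312 bases. Clusters above 0 numbered 47167 to 55781 in dsFactin and 57714 to 61503 in dsNC. Over the 53182 clusters that reached 0.5 FPKM in 3 or more libraries, the ones tested, the median difference in log2(FPKM + 1) between dsFactin and dsNC was -0.27, and -0.09 after median-ratio rescaling. The labels do not say which actin transcript was targeted: the abundant actin cytoplasmic A3a-like Cluster-8110.34823 was at 1906, 2321 and 3221 FPKM in dsFactin and at 4443, 5949 and 5426 FPKM in dsNC, and Cluster-8110.35523, named actin-87E, had 338, 397 and 558 FPKM in dsFactin and 880, 1119 and 1057 FPKM in dsNC. Neither passed in the fit over all clusters (limma, adjusted p = 0.0911 and 0.0675).

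All 4 clusters lay lower in dsFactin than in dsNC, at 37.6 to 44.5% of the dsNC mean. Cluster-8110.37712 was at 17.0, 17.8 and 15.4 FPKM in dsFactin replicates 1 to 3 and at 40.9, 42.8 and 39.5 FPKM in dsNC replicates 1 to 3. The highest dsFactin library held less than the lowest dsNC library, and the libraries of each group lay close together, with a coefficient of variation of 7.33% in dsFactin and 4.09% in dsNC. The difference in mean log2(FPKM + 1) was -1.25 ± 0.07 (SE, n = 3 each). About 682 to 844 fragments in dsFactin and 1762 to 1918 in dsNC stood behind these values.

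Cluster-8110.36223 was at 14.1, 19.2 and 16.3 FPKM in dsFactin and at 44.5, 46.4 and 41.2 FPKM in dsNC. Its groups did not overlap either, and its log2 difference of -1.37 ± 0.13 (SE, n = 3 each) was the lowest of the 4. The dsFactin libraries were spread more widely (coefficient of variation 15.3%) than the dsNC libraries (6.0%), replicate 2 being the highest of the dsFactin libraries.

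Cluster-8110.42712, the short one, was at 23.9, 26.5 and 22.1 FPKM in dsFactin and at 53.1, 61.4 and 48.2 FPKM in dsNC, a log2 difference of -1.13 ± 0.12 (SE, n = 3 each). It had the highest FPKM of the 4 in every library but the fewest fragments, about 37 to 55 in dsFactin and 81 to 101 in dsNC, because 409 bases less the constant leave 97 to 128 bases. Counting error alone was 13.5 to 16.3% in dsFactin and 9.94 to 11.1% in dsNC for this cluster, beside a coefficient of variation between libraries of 9.11% in dsFactin and 12.2% in dsNC. These errors cover counting only.

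Periostin-like Cluster-8110.36517 was at 4.83, 6.12 and 4.76 FPKM in dsFactin and at 13.5, 12.2 and 12.5 FPKM in dsNC, a log2 difference of -1.15 ± 0.11 (SE, n = 3 each). It was the least abundant of the 4 in each library, with about 176 to 233 fragments in dsFactin and 456 to 508 in dsNC. In dsNC its mean exceeded that of 86.6% of the tested clusters, while the 3 ig-h3 clusters exceeded 94.8 to 95.9%. In both groups the order of the 4 means by FPKM, a scale set per length, put the short Cluster-8110.42712 first and periostin-like Cluster-8110.36517 last; Cluster-8110.36223 and Cluster-8110.37712 lay within 1 SD of each other in dsFactin (16.5 ± 2.52 and 16.7 ± 1.23 FPKM) and close in dsNC (44.0 ± 2.64 and 41.1 ± 1.68 FPKM).

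**Figure D1:**
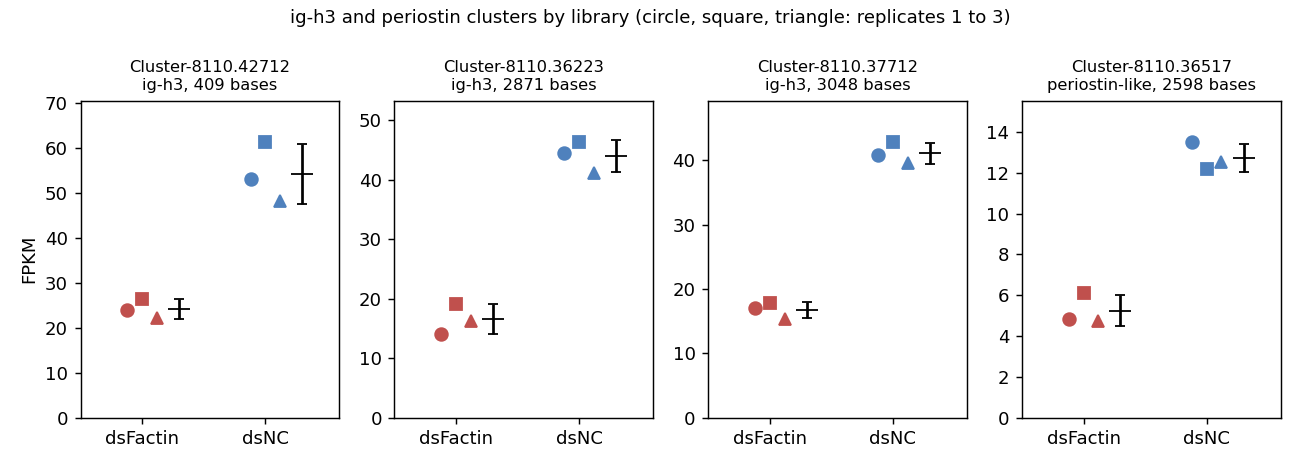
FPKM of the 4 clusters (vertical axes, each from 0) in the dsFactin and dsNC libraries; circles, squares and triangles are replicates 1 to 3, black marks the mean and SD (n = 3). In each panel the 3 dsFactin libraries lie below the 3 dsNC libraries, for Cluster-8110.37712 at 15.4 to 17.8 against 39.5 to 42.8 FPKM.

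These differences are the ones the clusters were chosen on. In the fit over all 53182 tested clusters (limma, Benjamini-Hochberg adjustment, threshold 0.05), 0.496% passed, 0.419% as lower in dsFactin and 0.0771% as higher, and in 21.5% the highest dsFactin library lay below the lowest dsNC library. The 4 are exactly those of the 17 clusters with an ig-h3 or periostin name that fell under the threshold. Periostin-like Cluster-8110.36517 lay just inside it (adjusted p = 0.0485, limma) and ig-h3 Cluster-8110.34871 just outside (adjusted p = 0.0522, limma), with log2 differences of -1.15 and -1.28. The number of clusters that pass moved with the libraries used, being 264 in all, 33 without dsNC replicate 2 and 1297 without dsFactin replicate 2. Relative to the median of all clusters the 4 differed by -0.86 to -1.10 on the log2 scale. A difference as low as theirs or lower was found in 3.82 to 6.17% of the tested clusters.

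The proportions of the 4 clusters to each other overlapped between the groups in 5 of the 6 pairs. All 4 were chosen on a fall in this contrast, which favours like ratios in both groups, so the ratios are a description only. The ratio of FPKM of Cluster-8110.36517 to Cluster-8110.37712 was 0.283, 0.344 and 0.309 in dsFactin and 0.331, 0.284 and 0.317 in dsNC, so no difference in proportion between the periostin-like and this ig-h3 cluster stood out from the spread of the libraries. The ratio of Cluster-8110.36223 to Cluster-8110.37712 was 0.829, 1.08 and 1.06 in dsFactin and 1.09, 1.08 and 1.04 in dsNC, overlapping between the groups. For the pair with the shared best hit, Cluster-8110.36223 over Cluster-8110.42712, the ratio was 0.592, 0.724 and 0.738 in dsFactin and 0.837, 0.756 and 0.854 in dsNC. This was the pair whose ratios did not overlap, and it rests on the cluster with the fewest fragments.

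Summed, the 4 clusters held 59.9, 69.5 and 58.6 FPKM in dsFactin and 152, 163 and 141 FPKM in dsNC, or 62.6 ± 6.01 and 152 ± 10.7 FPKM (SD, n = 3), a log2 ratio of means of -1.28. In these libraries of unseparated material, fewer cells of a type and less RNA per cell cannot be told apart.

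The rest of the family did not move as one. A further 13 clusters carried ig-h3, periostin or TGFBI in their annotation, of which 11 passed the filter on low values and were tested. In limma 0 of these 11 passed over all clusters, as their choice as the remainder requires, and 6 had an unadjusted p under 0.05, 1 higher and 5 lower, against 4.53% higher and 14.8% lower over all tested clusters. The groups did not overlap, with dsFactin below, in 5 of the 11 and with dsFactin above in 1, against 21.5% and 5.98% over all tested clusters. The median log2 difference of the 11 was -0.35, beside -0.27 over all clusters.

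Some other clusters of the family also lay lower in dsFactin, with log2 differences both inside and outside the range of the 4. Cluster-8110.34871 (689 bases) was at 9.81, 14.7 and 12.1 FPKM in dsFactin and at 29.9, 34.4 and 27.9 FPKM in dsNC (log2 difference -1.28 ± 0.18, SE, adjusted p = 0.0522, limma). Its best spider hit, an ig-h3 of Nephila pilipes, was shared with Cluster-8110.9172 (546 bases), which was at 0.84, 2.76 and 0.51 FPKM in dsFactin and at 6.24, 5.66 and 6.14 FPKM in dsNC (log2 -1.68 ± 0.36, adjusted p = 0.0895, limma). The groups did not overlap in either. Only about 2 to 11 fragments in dsFactin and 22 to 27 in dsNC stood behind Cluster-8110.9172, with a counting error of 30.1 to 70.9% in dsFactin. A short periostin cluster, Cluster-8110.42760 (431 bases, best hit in Trichonephila clavata), averaged 4.36 ± 1.22 FPKM in dsFactin and 10.4 ± 3.35 FPKM in dsNC (SD, n = 3, adjusted p = 0.137, limma). It rested on about 8 to 11 fragments in dsFactin and 16 to 25 in dsNC. The long ig-h3 Cluster-8110.37148 (3074 bases) averaged 14.8 ± 0.998 FPKM in dsFactin and 24.6 ± 3.93 FPKM in dsNC (adjusted p = 0.101, limma), a log2 difference of -0.69 ± 0.16 (SE).

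The most abundant cluster of the family lay on the other side. Cluster-8110.33846 (1915 bases), an ig-h3-like cluster, was at 173, 241 and 181 FPKM in dsFactin and at 140, 116 and 127 FPKM in dsNC. Every dsFactin library lay above every dsNC library, with a log2 difference of 0.62 ± 0.16 (SE) that did not pass over all clusters (adjusted p = 0.125, limma). Cluster-8110.36505 (2275 bases), also ig-h3-like, was at 44.0, 39.8 and 65.1 FPKM in dsFactin and at 36.6, 41.8 and 37.1 FPKM in dsNC, overlapping (adjusted p = 0.424, limma). Cluster-8110.31639 (2128 bases) was at 13.9 ± 2.11 FPKM in dsFactin and 16.2 ± 2.17 FPKM in dsNC (SD, n = 3, adjusted p = 0.548, limma), a log2 difference of -0.20 that turned to 0.10 after median-ratio rescaling. The short Cluster-8110.23622 (365 bases) was at 27.8 ± 4.72 FPKM in dsFactin and 36.1 ± 9.51 FPKM in dsNC (adjusted p = 0.445, limma).

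The remaining clusters with these names were scarce. Cluster-8110.28474 averaged 0.273 FPKM in dsFactin and 1.25 FPKM in dsNC (adjusted p = 0.154, limma), and Cluster-8110.6319 and Cluster-14453.0, which share a best hit and a KEGG entry for periostin, averaged 0.447 and 0.697 FPKM in dsFactin and 0.817 and 0.750 FPKM in dsNC. Cluster-8110.45380 and Cluster-8110.5749 did not pass the filter. Cluster-8110.5749 had its best hit in Drosophila, was listed at 0 in all 3 dsFactin libraries and reached 3.96 FPKM in dsNC replicate 3, and was left out of the family sums. Cluster-8110.17173 and Cluster-8110.25677 shared the uncharacterized spider hit of Cluster-8110.37712 without an ig-h3 name and averaged 0.50 and 0.837 FPKM in dsFactin and 1.93 and 3.30 FPKM in dsNC.

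**Figure D2:**
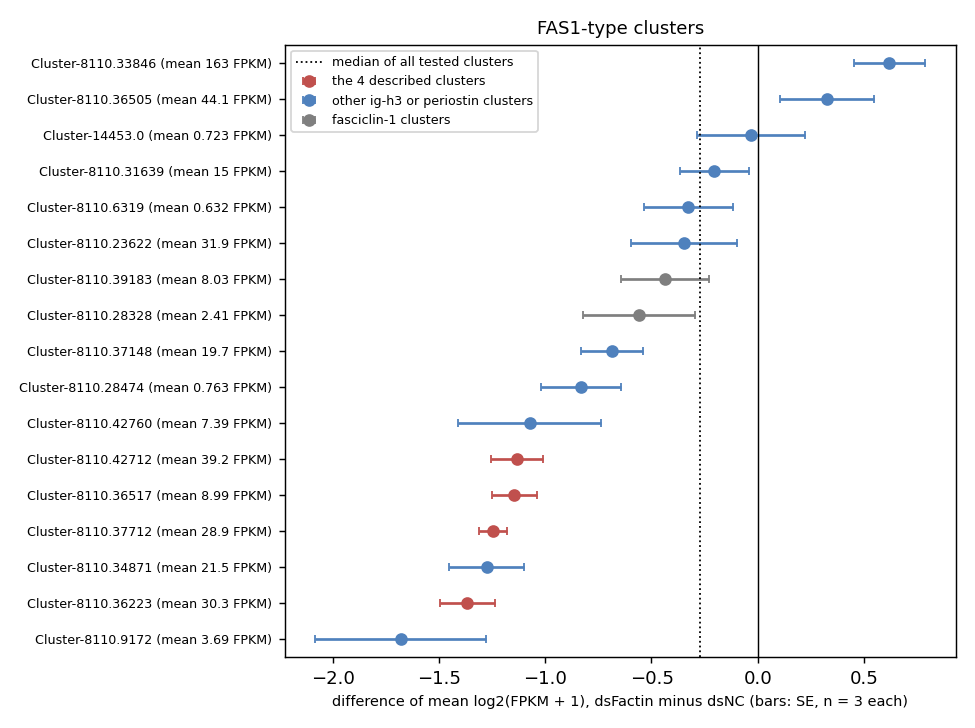
Difference in mean log2(FPKM + 1), dsFactin minus dsNC, for the 4 described clusters (red), the 11 other tested ig-h3 or periostin clusters (blue) and 2 fasciclin-1 clusters (grey); bars are the SE (n = 3 each) and the dotted line is the median of all tested clusters at -0.27. The 4 lie between -1.13 and -1.37, where they were chosen to lie, and Cluster-8110.33846 is the highest at 0.62.

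The make-up of the family differed more than its total. Over the 16 clusters without a Drosophila best hit, summed FPKM was 345, 433 and 385 in dsFactin and 455, 465 and 415 in dsNC, overlapping between the groups. The 4 clusters made up 17.3, 16.1 and 15.2% of the sum in dsFactin and 33.4, 35.0 and 34.1% in dsNC. Cluster-8110.33846 made up 51.0 ± 4.41% in dsFactin and 28.8 ± 3.23% in dsNC (SD, n = 3). The 12 others together held 325 ± 39.2 FPKM in dsFactin and 293 ± 17.0 FPKM in dsNC. The shares carry the choice of the 4 and were not tested.

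**Figure D3:**
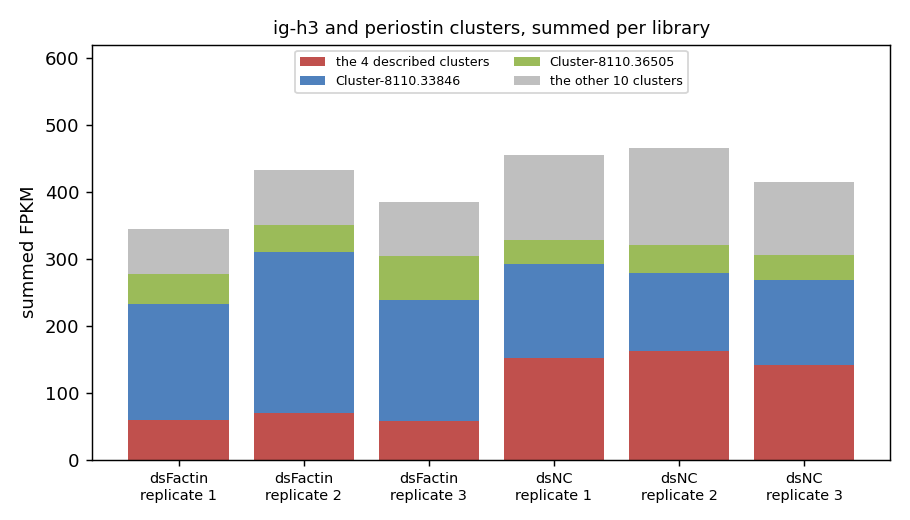
Summed FPKM of the 16 ig-h3 and periostin clusters in each library, stacked as the 4 described clusters (red), Cluster-8110.33846 (blue), Cluster-8110.36505 (green) and the other 10 (grey). The red part is 58.6 to 69.5 FPKM in dsFactin and 141 to 163 FPKM in dsNC, while the full bars overlap between the groups.

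The table also allowed a comparison of how close the clusters are to vertebrate ig-h3. In the authors' deposited table the alignment scores of the 3 long clusters described here to Swiss-Prot ig-h3 were 222, 278 and 303. Cluster-8110.33846, Cluster-8110.36505, Cluster-8110.31639 and Cluster-8110.37148 had scores of 427, 477, 572 and 792 in the authors' deposited table, each higher than that of any of the 4. Such scores also grow with the length aligned.

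Fasciclin-1, the founding FAS1-domain protein of insects, was represented by 2 tested spider clusters, looked up after the table was seen. Cluster-8110.39183 (8367 bases) was at 8.29, 7.01 and 4.91 FPKM in dsFactin and at 10.4, 9.13 and 8.45 FPKM in dsNC (log2 -0.44 ± 0.21, SE, adjusted p = 0.317, limma). Cluster-8110.28328 (5637 bases) averaged 1.76 ± 0.609 FPKM in dsFactin and 3.07 ± 0.890 FPKM in dsNC (SD, n = 3, adjusted p = 0.325, limma). Neither passed. Both lay nearer to the median of all clusters than the 4, but the 4 were chosen on this difference, so nothing is drawn from that.

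Fasciclin-2 shares the name but not the fold: it is an adhesion protein of the immunoglobulin family, related to vertebrate NCAM. Of 9 clusters with that best hit, all tested, 0 passed in limma, beside 0.496% of all tested clusters. An unadjusted p under 0.05 was found for 3, all lower in dsFactin, against 14.8% lower over all tested clusters. Cluster-8110.25432 averaged 20.1 ± 2.33 FPKM in dsFactin and 38.9 ± 2.60 FPKM in dsNC (SD, n = 3, adjusted p = 0.0536, limma), and Cluster-8110.29325 averaged 6.21 ± 0.669 FPKM in dsFactin and 12.2 ± 1.54 FPKM in dsNC (adjusted p = 0.0749, limma). Others overlapped between the groups, such as Cluster-8110.40918 at 55.9 ± 7.80 FPKM in dsFactin and 50.9 ± 5.39 FPKM in dsNC (adjusted p = 0.662, limma).

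Genes of the transforming growth factor beta and bone morphogenetic protein pathway, after which ig-h3 is named in human cells, were taken by name. Of 72 clusters, 66 were tested and 0 passed in limma, where 0.496% of all tested clusters passed. An unadjusted p under 0.05 was found for 25, 2 higher and 23 lower. The median log2 difference was -0.36 beside -0.27 over all clusters. The share with an unadjusted p under 0.05 was 37.9% in the list and 19.3% over all tested clusters. Among secreted ligands, 15 tested clusters had a median of -0.49. A myostatin-type ligand named growth/differentiation factor 8 (Cluster-8110.37281) was at 8.77 ± 3.72 FPKM in dsFactin and 20.3 ± 2.09 FPKM in dsNC (SD, n = 3, adjusted p = 0.112, limma). An activin-type ligand named inhibin beta E chain-like (Cluster-8110.41039) was listed at 0 in all 3 dsFactin libraries and was at 4.45, 2.65 and 15.2 FPKM in dsNC (adjusted p = 0.0802, limma).

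Receptor and Smad clusters were few. The 7 receptor clusters ranged from -0.69 to 0.22 with a median of -0.14, and 0 passed, beside 0.496% of all tested clusters. The 3 clusters named mothers against decapentaplegic, the Smads that carry the signal to the nucleus, differed by -0.44 to 0.74. The 1 with the positive value, Cluster-8110.22134, was at 5.23 ± 2.56 FPKM in dsFactin and 2.58 ± 0.633 FPKM in dsNC (adjusted p = 0.275, limma). Among 27 tested extracellular regulators (noggin, chordin, follistatin, tolloid and latent binding proteins by name), 3 were positive and 24 negative, where 71.6% of all tested clusters were negative. Kielin/chordin-like Cluster-8110.31495, by name a modulator of bone morphogenetic proteins, was at 212 ± 32.4 FPKM in dsFactin and 135 ± 29.3 FPKM in dsNC, without overlap (adjusted p = 0.155, limma). A cluster named for von Willebrand factor C and EGF domains (Cluster-8110.36101), drawn by a word in its hit names, was at 13.4, 26.9 and 9.88 FPKM in dsFactin and at 88.0, 65.5 and 45.4 FPKM in dsNC (adjusted p = 0.0829, limma).

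Integrins are the cell surface receptors that ig-h3 and periostin bind in vertebrates. The list of 24 clusters was drawn by the word integrin. It included 5 named calcium and integrin-binding proteins, 4 of them tested, which are not integrin chains. Over the whole list 20 were tested and 0 passed in limma, beside 0.496% of all tested clusters. Of these 20, 8 had an unadjusted p under 0.05, all lower in dsFactin, and the median log2 difference was -0.48. Over all tested clusters 14.8% were lower with an unadjusted p under 0.05, and the median was -0.27. The 3 tested beta chains differed by -0.76 to -0.15. In 2 of them every dsFactin library lay below every dsNC library, against 21.5% of all tested clusters. These 2 were named beta-PS, the partner chain of most insect integrins. Cluster-8110.32948 was at 18.7, 16.0 and 14.3 FPKM in dsFactin and at 29.8, 27.7 and 24.5 FPKM in dsNC (log2 -0.71 ± 0.15, SE, adjusted p = 0.0893, limma). Cluster-8110.38615 averaged 15.3 ± 3.14 FPKM in dsFactin and 26.2 ± 1.86 FPKM in dsNC (SD, n = 3, adjusted p = 0.0975, limma). Of 13 tested alpha chains 12 were negative, beside 71.6% of all tested clusters, among them alpha-PS1-like Cluster-8110.37458 at 6.70 ± 0.436 FPKM in dsFactin and 10.1 ± 1.07 FPKM in dsNC (adjusted p = 0.140, limma).

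Matrix proteins were mixed. Of 161 tested clusters in a list of 169 drawn by name, 1 rose and 2 fell in limma, where 0.496% of all tested clusters passed. An unadjusted p under 0.05 was found for 44, or 27.3%, against 19.3% over all tested clusters, and the median log2 difference of -0.25 lay beside -0.27 over all clusters. The clusters that fell were both named for immunoglobulin and fibronectin type III domains, folds common in adhesion and muscle proteins: Cluster-8110.37384, at 11.2 ± 0.870 FPKM in dsFactin and 27.4 ± 2.09 FPKM in dsNC (SD, n = 3, log2 -1.22 ± 0.13, SE, adjusted p = 0.0326, limma), and Cluster-8110.38206, at 6.04 ± 0.689 FPKM in dsFactin and 14.4 ± 0.488 FPKM in dsNC (adjusted p = 0.0412, limma). The cluster that rose was a 335-base piece named papilin, a matrix protein with protease inhibitor domains (Cluster-8110.39942), at 192 ± 20.4 FPKM in dsFactin and 70.6 ± 12.5 FPKM in dsNC (adjusted p = 0.0384, limma). Its length is little more than the constant of 281 to 312 bases by which gene length was reduced. Its FPKM therefore rest on few bases and depend strongly on that constant, which differed between libraries. All 3 calls ended after median-ratio rescaling, without the intensity trend, with the replicate number as a block, and on leaving out any 1 library other than dsFactin replicate 2, without which 12 of the list passed. Among those that did not pass, an ADAMTS-like cluster (Cluster-8110.38213) was at 2.87 ± 0.396 FPKM in dsFactin and 8.45 ± 1.47 FPKM in dsNC (adjusted p = 0.0557, limma), and a cluster named tspear (Cluster-8110.37548) at 43.5 ± 14.4 FPKM in dsFactin and 16.6 ± 2.57 FPKM in dsNC (adjusted p = 0.0784, limma).

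Collagens, which ig-h3 and periostin bind in vertebrates, included 20 tested clusters with a median of -0.21 and laminins 24 with a median of -0.31. In limma 0 of either passed, beside 0.496% of all tested clusters. An unadjusted p under 0.05 was found for 3 and 5, near the 19.3% over all tested clusters. Peroxidasins, enzymes that cross-link collagen of basement membranes, ranged from -1.35 to 1.88 over 6 tested clusters, with a median of -0.44. Of the 6, 5 were negative and 1 positive, beside 71.6% negative among all tested clusters. Every dsFactin library lay below every dsNC library in 4 of them, against 21.5% of all tested clusters. The reverse held for 1, against 5.98%, and 0 passed the threshold, against 0.496%. The only positive peroxidasin, Cluster-8110.37950, was at 156, 156 and 378 FPKM in dsFactin and at 54.7, 67.4 and 48.1 FPKM in dsNC (adjusted p = 0.0800, limma). All 10 tested metalloproteinases with thrombospondin motifs, enzymes that trim matrix proteins, were negative, beside 71.6% of all tested clusters, with a median of -0.49. In limma 0 of them passed, beside 0.496% of all tested clusters. An unadjusted p under 0.05 was found for 2 of the 10, close to the 19.3% over all tested clusters. The 15 tested fibronectin-domain clusters, which include both calls that fell, had a median of -0.80, with 12 negative and 3 positive. Of 23 tested papilins, 13 were negative and 10 positive, with a median of -0.22. Every dsFactin library lay above every dsNC library in 6 papilins and below in 2, against 5.98% and 21.5% of all tested clusters.

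Summed levels of marker genes of several organs differed between the groups and stand beside the values of the 4 clusters. The summed FPKM of 113 muscle marker clusters was 4656, 5085 and 5891 in dsFactin and 9305, 11261 and 10918 in dsNC, a log2 ratio of means of -1.01 beside -1.28 for the 4 clusters, and 101 of the 113 had a lower mean in dsFactin. The 102 haemolymph and haemocyte markers summed to 46552 to 55770 FPKM in dsFactin and 73295 to 90375 FPKM in dsNC, a log2 ratio of -0.68, with 78 lower on the mean. Cuticle markers (201 clusters) were at 18736, 8680 and 29687 FPKM in dsFactin and at 35043, 29659 and 30875 FPKM in dsNC, 149 of them lower on the mean. Over the 74652 clusters above 0 in any library, 67.7% had a lower mean in dsFactin. Of the muscle markers 1 was at 0 in every library and 24 at 0 throughout dsFactin. Of the cuticle markers 10, and of the haemolymph markers 2, were at 0 throughout dsFactin.

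Other lists had higher sums in dsFactin: 20 ovary and germ line markers summed to 547, 695 and 1366 FPKM in dsFactin and to 268, 285 and 244 FPKM in dsNC, and 103 digestive markers to 31169 to 37492 FPKM in dsFactin and 22349 to 27738 FPKM in dsNC. A lower mean in dsFactin was still found for 3 of the 20 ovary and 45 of the 103 digestive clusters, beside the 67.7% above. Within dsFactin the muscle sum was highest in replicate 3 and the cuticle sum lowest in replicate 2, whereas the sum of the 4 clusters was highest in replicate 2. In dsNC both the muscle sum and the sum of the 4 were highest in replicate 2. The part of these markers in the difference of the 4 clusters was not tested.

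**Figure D4:**
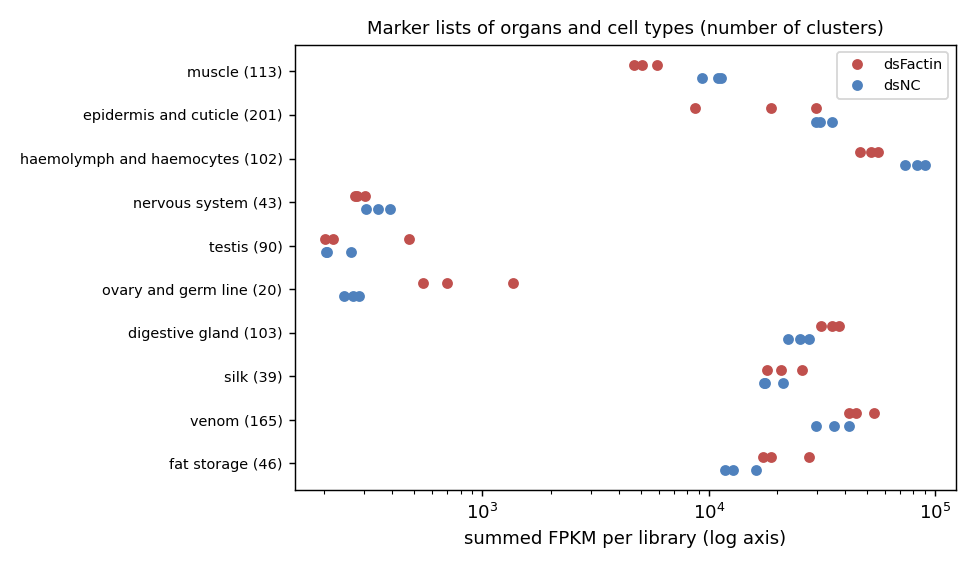
Summed FPKM per library (log axis) of marker clusters for 10 organs or cell types, with the number of clusters in brackets; red points are the 3 dsFactin and blue points the 3 dsNC libraries. Muscle, haemolymph and nervous system markers lie lower in dsFactin without overlap, at 4656 to 5891 against 9305 to 11261 FPKM for muscle, and ovary, digestive and fat storage markers lie higher.

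Clusters with the most similar profile over the 6 libraries were found among 13893 named clusters with a mean of at least 1 FPKM, by the root mean square difference of log2(FPKM + 1) after each profile was centred on its mean. These are the libraries whose group difference chose the 4, so the nearest profiles share that difference by construction and are named as a description only. For Cluster-8110.37712 these were a glycine receptor subunit alpha-1-like cluster (Cluster-8110.34663, 0.0701), a cluster named MDS1 and EVI1 complex locus protein (Cluster-8110.38484, 0.0709) and the immunoglobulin and fibronectin type III Cluster-8110.37384 (0.0924). For Cluster-8110.36223 they were ig-h3 Cluster-8110.34871 (0.0728), a nose resistant to fluoxetine protein 6-like cluster (Cluster-8110.32144, 0.0789) and RNA-binding MEX3B-like Cluster-8110.34747 (0.0847).

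For the short Cluster-8110.42712 the nearest were a DNA damage-regulated autophagy modulator (Cluster-8110.31425, 0.0517), an acid labile subunit-like cluster (Cluster-8110.33132, 0.0656) and an F-box/LRR-repeat protein 12-like cluster (Cluster-8110.34893, 0.0764). For periostin-like Cluster-8110.36517 they were a sulfotransferase 1C4-like cluster (Cluster-8110.29514, 0.0620), Cluster-8110.38206 (0.0686) and a venom protein hit (Cluster-8110.30900, 0.0690). Among themselves the 4 differed by 0.0909 to 0.161 on the same scale.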

How the data were processed

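The authors deposited 1 table of FPKM values, rounded to 2 decimals, with 1 column per library, a cluster length in bases and best protein hits. Per the labels' protocols, an RNeasy kit gave the RNA and a SMARTER mRNA kit the libraries. The submitters' processing notes name the build mm10, a mouse build that the cluster names of the deposited table do not carry; the assembler, aligner and counter were not given in the sources used here. Best hits and Pfam entries were used as listed. How reads were divided among related clusters is not stated, so values of single family members are uncertain.

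Depth was recovered from steps between low FPKM values: 99.5 to 99.8% of them lay within 0.1 of a whole number of fragments. At these depths 3 fragments in a cluster of 1000 bases equal 0.233 to 0.277 FPKM. Clusters reaching 0.5 FPKM in 3 or more libraries were analysed as log2(FPKM + 1), which understates changes at low levels. The two-sided test used limma 3.58.1 (R 4.3.3) with an intensity trend and Benjamini-Hochberg adjustment over all 53182 clusters. Tested on simulated data for this comparison over 53182 clusters, the fit called 8% of 100 clusters changed by 1 and 76% of 100 changed by 3 on the log2 scale, with 3 false calls. The changed clusters had a mean of at least 5 FPKM, the noise was normal and independent, and no other cluster changed. In the deposited values 19.3% of the tested clusters had an unadjusted p under 0.05 (limma), so these rates may not hold there. For the 4 described clusters the SE comes from the 3 and 3 libraries alone.

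The members and lists were chosen with earlier results of these data known. Lists were drawn by words in best-hit names, so some members are unrelated in function. No cluster carries the fasciclin domain in its Pfam entry, so the family was drawn by ig-h3, periostin and TGFBI names alone. Genes were named by a rule: all members, every other ig-h3 or periostin cluster with a mean of at least 1 FPKM, up to 3 positive and 3 negative clusters per list by p, and the 3 nearest profiles per member; scarcer family clusters and those of fasciclin-1 were added after their values were seen. Not every cluster the rule gave is printed. The alternatives were pseudocounts of 0.1 and 0.01, median-ratio rescaling, quantile normalization, no filter, a mean of at least 5 FPKM, no trend, array weights, the replicate block and each library left out in turn.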

Additional observations from a re-analysis of the deposited data

How the results depend on the processing

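All 4 clusters stayed lower in dsFactin in each of the 11 alternatives run on them. Their groups did not overlap, so the pseudocounts, the replicate block and leaving out 1 library could not have turned the sign. Median-ratio rescaling gave log2 differences of -0.93 (Cluster-8110.37712), -1.05 (Cluster-8110.36223), -0.81 (Cluster-8110.42712) and -0.85 (Cluster-8110.36517), and a summed log2 ratio of -0.95. Cluster-8110.36517 was at -1.29 with a pseudocount of 0.01 and -0.93 with quantile normalization. With 1 library left out the differences ranged from -1.29 to -1.19, -1.47 to -1.27, -1.21 to -1.04 and -1.24 to -1.09 in the same order of clusters, and the sum from -1.36 to -1.23. The causes were not tested.

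The 264 clusters passing over all became 114 with a pseudocount of 0.01, 115 after median-ratio rescaling, 117 without a filter, 781 at a mean of at least 5 FPKM, 174 without a trend and 702 with array weights, and 33 to 1297 with 1 library left out (1297 without dsFactin replicate 2, 58 and 105 without dsFactin replicates 1 and 3, 45, 33 and 77 without dsNC replicates 1 to 3). Higher calls were 41 of 264, 25 of 115 after median-ratio rescaling, 67 of 243 with quantile normalization and 246 of 781 at a mean of at least 5 FPKM. With the replicate block 17 passed. Deviations of same-numbered libraries correlated at 0.0994, -0.108 and -0.153, and those of differently numbered libraries at -0.140 to 0.229. With 3 libraries per group these values cannot decide whether same-numbered libraries share more than a number.

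The other ig-h3 and periostin clusters had 1 call with a pseudocount of 0.1, at a mean of at least 5 FPKM and with array weights, and 0 to 2 with 1 library left out, all lower in dsFactin. Fasciclin-2 clusters had 1 call with a pseudocount of 0.1 and with array weights, 2 at a mean of at least 5 FPKM and 0 to 1 with 1 library left out. The growth factor pathway had 1 with a pseudocount of 0.1 and with array weights and 0 to 2 with 1 library left out, and integrins had 1 at a mean of at least 5 FPKM and 0 to 1 with 1 library left out. The 3 matrix calls became 0 after median-ratio rescaling, with the replicate block and without a trend, 9 at a mean of at least 5 FPKM, 5 with array weights, and 0 to 12 with 1 library left out (12 without dsFactin replicate 2, 0 without any other).

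Direction turned after median-ratio rescaling for Cluster-8110.31639 (0.10), and without dsFactin replicate 2 for the fasciclin-2 clusters Cluster-8110.30790 (-0.025, range with 1 library left out up to 0.12) and Cluster-8110.36787 (-0.091, up to 0.14). A short integrin piece (Cluster-8110.9790) was at -0.39, -0.03 and -0.54 without dsFactin replicate 2, dsNC replicate 1 and dsNC replicate 2, and up to 0.82 without dsNC replicate 3. The scarce Cluster-8110.6319 was at 0.046 with quantile normalization. Cluster-14453.0 was at 0.12 after median-ratio rescaling, at 0.31 with quantile normalization and at -0.24 to 0.12 with 1 library left out.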
